A study of Homo sapiens with 6 samples.

Results

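The comparison described here sets RNA precipitated by anti-LARP1 (LARP1 IP) against the unselected starting RNA (Input). Both were taken from a fraction of HCT116 cells that the series text calls free 40S and the sample descriptions a 40S monosome fraction. It is called free 40S here. The members of the comparison were chosen by sample title and are 4 of the 6 libraries of the series, 2 LARP1 IP and 2 Input. The remaining 2 libraries, made with control IgG from normal rabbit serum (IgG IP), are given beside them as the background of the precipitation. HCT116 is an established human colorectal carcinoma line, and the labels name no treatment or genetic change in any group, and tell the groups apart only by antibody (anti-LARP1, IgG or none). All libraries were made with a stranded kit without poly(A) selection, so RNA lacking a poly(A) tail could enter each of them. The replicates are labelled as biological, but whether each had its own culture is not stated, and the p-values reflect only how far these libraries differ from one another.

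LARP1 is an RNA-binding protein that acts downstream of the kinase mTORC1. It is known for binding the cap and the first bases of mRNAs that start with a pyrimidine tract (TOP mRNAs), which encode ribosomal proteins and translation factors. The 40S subunit is the small ribosomal subunit, and in a sucrose gradient the free 40S fraction holds small subunits that are not joined to a large subunit, together with any other particle of like sedimentation.

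The count files give versioned Ensembl IDs only. The gene table used here holds an Ensembl ID in 0 of its 59792 rows, so 0 IDs could be matched. Genes are therefore described by their level and by how they changed, and 4 IDs are printed as examples. Whether the genes gained belong to the TOP class, whether defining markers of colon epithelium were present, and the level of LARP1's own mRNA were not analysed here, and no sequence is shown for the same reason.

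The LARP1 IP differed from Input first in its make-up. In Input, 2 genes held 88.65% and 87.88% of all counts in replicates 1 and 2, against 26.64% and 21.27% in the LARP1 IP and 70.85% and 71.5% in the IgG IP. Both Input libraries therefore lay far above both LARP1 IP libraries, with no overlap, and the IgG IP libraries lay between them. With 2 libraries on each side the smallest two-sided p of an exact permutation test is 0.33, so the separation is stated as a measurement. Outside those 2 genes Input kept 752862 and 778680 counts and the LARP1 IP 3823470 and 3256012. A median tested gene had 15 and 17 counts in Input and 46 and 27 in the LARP1 IP, while the lower genes described below had fewer counts in the LARP1 IP (median 32 and 14) than in Input (52 and 41.5). A library detected 15798 to 18016 genes.

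**Figure D1:**
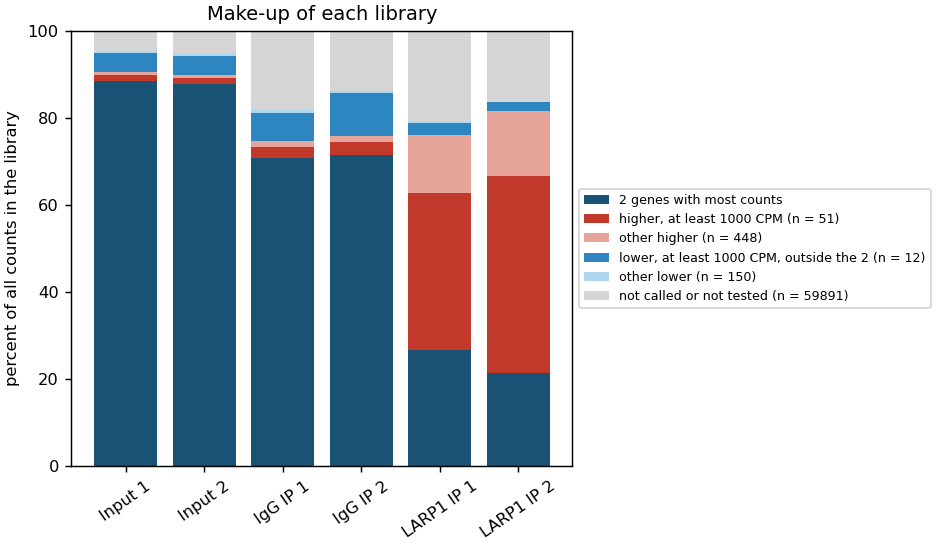
Percent of each library's counts held by groups of genes, with 1 bar per library and the groups stacked. The 2 genes with the most counts fill most of both Input bars, and 51 genes called higher with a mean of at least 1000 CPM rise from about 1.34% of Input to 36.17% and 45.41% of the LARP1 IP; the groups were formed with the same libraries.

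Of 10788 genes tested, 499 were higher in the LARP1 IP than in Input (4.63% of those tested) and 164 were lower (1.52%), by edgeR's quasi-likelihood test at an adjusted p of 0.05. Among the higher genes the log2 fold change had quartiles of 1.99, 2.50 and 3.29, so the median gene differed 5.65-fold, and 370 of them exceeded 4-fold. Among the lower genes the quartiles were -2.93, -2.47 and -2.10, a median of 5.53-fold, and 131 exceeded 4-fold. Over all genes tested the median was 0.03 and the middle 50% ran from -0.57 to 0.68. For each of the 499 higher and 164 lower genes the 2 LARP1 IP libraries did not overlap with the 2 Input libraries, a property the test favours. Over all genes tested, the LARP1 IP lay wholly above Input in 3105 (28.8%) and wholly below it in 2457 (22.8%).

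The split into higher and lower depended on the scaling, because no external standard fixes the absolute recovery. With total counts in place of TMM scaling the median of all genes moved to 1.75, and 6550 genes were higher and 27 lower. With total counts outside the 2 most abundant genes the median moved to -0.98, and 186 were higher and 1270 lower. Relative to the median of all genes, the 499 higher genes stood at 2.47, 2.40 and 2.43 under the 3 scalings. The 164 lower genes stood at -2.50, -2.48 and -2.46. With total counts outside the 2 most abundant genes, 496 of the 499 were tested. A change of scaling shifts all genes by a nearly equal amount, so these distances stay alike by construction and do not test the sets. When either Input library was left out (replicate 1 or 2), edgeR lost all of its calls and DESeq2 kept part of them. DESeq2 then gave no adjusted p to 6949 of 11562 and 5858 of 11621 tested genes, so it adjusted over fewer genes than edgeR. By edgeR the median log2 fold changes were 2.64 and 2.45 for the higher genes, and -2.21 and -2.64 for the lower genes.

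**Figure D2:**
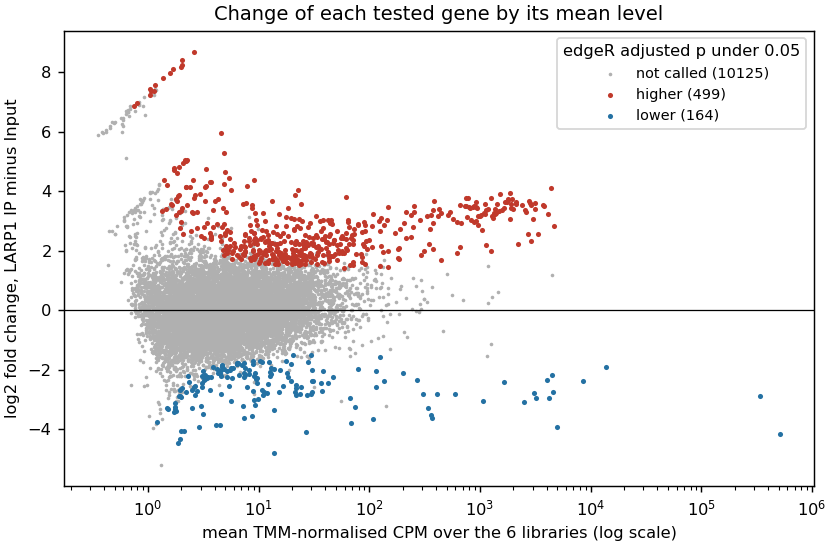
Log2 fold change of the LARP1 IP over Input for each of the 10788 tested genes, against the mean level over the 6 libraries in TMM-normalised CPM on a log scale. Genes called higher (499) and lower (164) are coloured; of 212 genes at 100 CPM or more, 112 lie above 2, 26 below -2 and 74 between, and the streaks at the upper left are genes with few or no Input counts.

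The share of genes called varied with level. A level is given here in CPM, counts relative to the TMM-scaled library size, averaged over the 6 libraries. Among 3190 genes below 3 CPM, 1.63% were higher and 0.878% lower, and from 10 to 30 CPM the shares were 6.01% and 1.53% of 2295 genes. From 30 to 100 CPM 17% of 552 genes were higher and 2.36% lower. From 100 to 1000 CPM 69 of 140 genes were higher (49.3%) and 13 lower (9.29%). Of the 72 genes at 1000 CPM or more, 51 were higher (70.8%), 14 were lower (19.4%) and 7 did not pass. The median log2 fold change was -0.05 below 3 CPM and from 3 to 10 CPM, and 0.19, 0.52, 1.48 and 3.24 in the tiers above. Genes that rose in the LARP1 IP have a higher mean level for that reason, which favours this rise. The median standard error fell from 0.759 below 3 CPM to 0.439 at 10 to 30 CPM and was 0.456 at 1000 CPM or more, so the precision was alike from 10 CPM upwards.

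A mean over all libraries includes the LARP1 IP itself, so the tiers were also drawn on the IgG IP alone, whose libraries enter neither side of the comparison. In tiers below 100 CPM in the IgG IP, 3.34% to 8.56% of tested genes were called higher than Input. The median log2 fold changes of these tiers ran from -0.04 to 0.18. Between 100 and 1000 CPM, 76 of 149 genes were higher (51%) and 11 were lower (7.38%), with a median log2 fold change of 1.69. At 1000 CPM or more the order turned: 3 of 21 genes were higher (14.3%) and 13 were lower (61.9%), with a median log2 fold change of -2.35. The share of genes gained was thus highest at 100 to 1000 CPM of background. The counted genes of highest level in the control precipitate were mostly lower in the LARP1 IP than in Input.

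**Figure D3:**
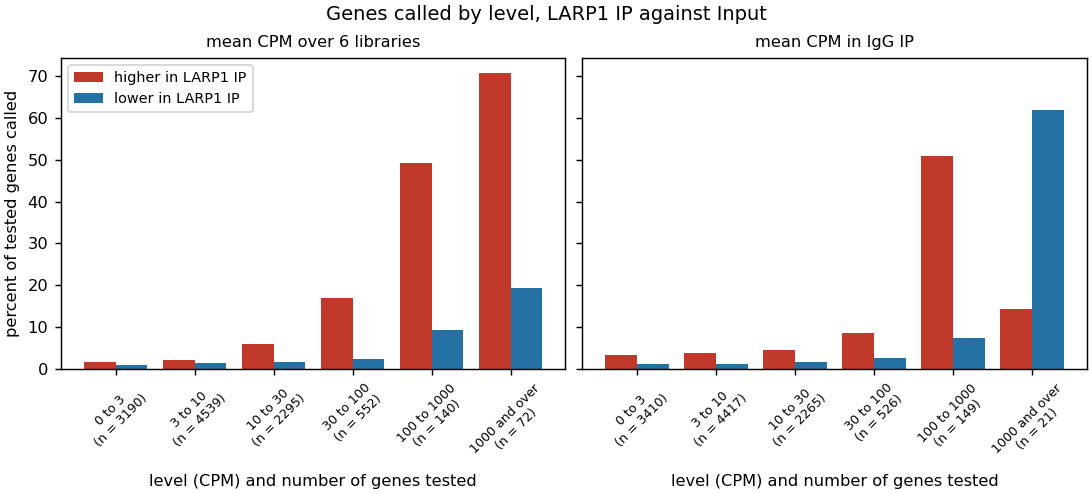
Percent of tested genes called higher or lower in the LARP1 IP against Input, by level in CPM averaged over the 6 libraries (left) or over the IgG IP libraries (right), with the number of genes tested under each pair of bars. On the left the share called higher climbs to 70.8% in the top tier; on the right it peaks at 51% between 100 and 1000 CPM, and the top tier holds 61.9% lower genes.

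The 51 abundant higher genes carried most of the gain in counts. They had log2 fold changes from 2.01 to 4.12 (median 3.40), and their median CPM was 4777 with anti-LARP1, 421 in Input and 294 with control IgG. Of the counts outside the 2 most abundant genes they took 49.3% and 57.68% in the LARP1 IP, 11.8% and 11.04% in Input, and 8.622% and 10.35% in the IgG IP. The other 448 higher genes took 18.03% and 18.99% in the LARP1 IP and 5.579% and 5.159% in Input. These shares describe genes that were picked on the same libraries and are not a second test of them. In the comparisons that share libraries with this one, the median log2 fold change of the 51 was 4.11 over the IgG IP, and -0.64 for the IgG IP over Input.

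The 14 abundant lower genes ran from -4.16 to -1.91 on the log2 scale, with a median of -2.83. At the median they stood at 7673 CPM in Input, 3446 CPM with control IgG and 1194 CPM with anti-LARP1. Outside the 2 most abundant, the other 12 took 37.6% and 36.4% of the remaining Input counts, 22.29% and 34.81% of the IgG IP and 3.775% and 2.525% of the LARP1 IP. With total counts 9 genes of this tier were called lower. When either Input library was left out, edgeR lost its calls of this tier in both directions. Its numbers of calls stayed within 1.5 times when a LARP1 IP or IgG IP library was left out. Those of DESeq2 did so with each of the 6 libraries left out in turn. Such fits leave a lone library in a group. The median log2 fold change of these 14 genes was -1.70 against the IgG IP, and -1.08 for the IgG IP over Input.

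Among the genes counted, those of highest level in Input and in the LARP1 IP were largely different. Levels cover only reads counted for a listed ID, so they do not rank all RNA of the fraction. The 10 genes with the highest level in Input were all lower in the LARP1 IP, with log2 fold changes from -4.16 to -1.91. Of the 10 with the highest level in the LARP1 IP, 8 were higher than in Input, with log2 fold changes from 2.83 to 4.12, and the 2 shared with the Input list were lower. The first 2 higher and the first 2 lower genes by level are given below in each library.

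ENSG00000105372.6 had the highest level in the LARP1 IP among the genes that rose. Input held 2165 and 2127 counts of it (0.03264% and 0.03311% of the library), the IgG IP 4828 and 6328 (0.06563% and 0.07842%) and the LARP1 IP 71653 and 88757 (1.375% and 2.146%). Both LARP1 IP libraries stood far above the other 4, and they differed from each other more than the Input libraries did. Its log2 fold change over Input was 4.12 ± 0.50 (SE; edgeR adjusted p = 0.000936). Over the IgG IP it was 4.48 ± 0.51 (edgeR adjusted p = 0.00018), and the IgG IP over Input gave -0.37 ± 0.44 (edgeR adjusted p = 0.913), or 1.13 with total counts (edgeR adjusted p = 0.0112).

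ENSG00000156508.17, the next by level, had 4448 and 5209 Input counts (0.06706% and 0.08108% of the library). The IgG IP libraries held 15800 and 17172 (0.2148% and 0.2128%), and the LARP1 IP libraries 89724 and 68099 (1.722% and 1.647%). As a percent of the library the 2 LARP1 IP libraries were close together, while after TMM scaling they stood at 9388 and 12640 CPM. Both were above all others on either scale. The log2 fold change was 2.83 ± 0.41 (SE) over Input and 2.80 ± 0.41 over the IgG IP (edgeR adjusted p = 0.00116 and 0.000804), and 0.03 ± 0.38 for the IgG IP over Input (edgeR adjusted p = 1), or 1.53 with total counts (edgeR adjusted p = 0.00992).

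ENSG00000210082.2, the most abundant gene of Input, had 3861048 and 3803023 counts there, which is 58.21% and 59.19% of all. The IgG IP libraries held 2235726 and 2475854 (30.39% and 30.68%), and the LARP1 IP libraries 670735 and 365084 (12.87% and 8.828%). The 3 groups did not overlap, with the IgG IP in the middle. The log2 fold change was -4.16 ± 0.44 (SE) against Input and -1.71 ± 0.40 against the IgG IP (edgeR adjusted p = 0.000936 and 0.0149). The IgG IP over Input gave -2.45 ± 0.41 (edgeR adjusted p = 0.165), but passed under 15 of 21 alternatives, among them DESeq2 (-2.49, adjusted p = 9.01e-09), total counts (-0.94, edgeR adjusted p = 0.00992) and a fit of the 4 libraries alone (-2.47, edgeR adjusted p = 0.00766).

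ENSG00000211459.2, the next in Input, had 2019042 and 1842952 Input counts, 30.44% and 28.69% of the library. It reached 2976361 and 3293823 counts with control IgG (40.46% and 40.82%) and 717604 and 514367 with anti-LARP1 (13.77% and 12.44%). On this scale the IgG IP was the highest group, while after TMM scaling Input was, at 623100 CPM against 300100 CPM; TMM factors of 0.4506 and 0.5028 for Input make its CPM values larger than those scaled by total counts alone. The IgG IP over Input was therefore -1.05 ± 0.40 on the log2 scale with TMM (edgeR adjusted p = 0.734) and 0.46 with total counts (adjusted p = 0.0239). The LARP1 IP was lowest on both scales, with a log2 fold change of -2.87 ± 0.42 (SE) against Input and -1.82 ± 0.41 against the IgG IP (edgeR adjusted p = 0.00123 and 0.0119). Against the IgG IP both of these lower genes lost the call when Input replicate 1 was left out (edgeR adjusted p = 0.071 and 0.0553), when Input replicate 2 was (0.11 and 0.0913) and in a fit of the 4 libraries alone (0.166 and 0.157).

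All 4 genes missed the threshold by edgeR without Input replicate 1 (adjusted p from 0.0647 to 0.0721) or Input replicate 2 (0.0816 to 0.0988). With DESeq2 they passed with each of the 6 libraries left out in turn, at adjusted p of at most 4.56e-06. With total counts their log2 fold changes were 5.74, 4.51, -2.44 and -1.17 in the order above, and with total counts outside the 2 most abundant genes they were 3.04, 1.82, -5.12 and -3.87, all past the threshold by edgeR (adjusted p at most 0.00205).

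**Figure D4:**
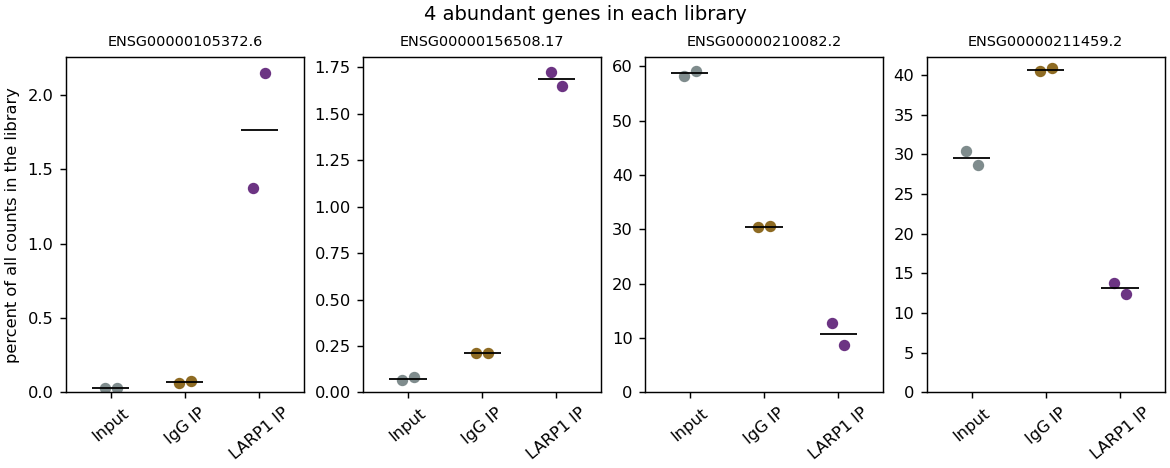
Percent of all counts in each library held by 4 abundant genes, 1 panel per gene with its own axis from 0; points are the 2 libraries of a group and bars their mean. The first 2 genes are highest in the LARP1 IP, the third falls from Input through the IgG IP to the LARP1 IP, and the fourth is highest in the IgG IP and lowest in the LARP1 IP.

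Among the higher genes the largest fold changes belonged mainly to genes with few Input counts. Of 427 higher genes with at least 10 CPM in the LARP1 IP, the 12 with the largest change ran from 3.93 to 5.97 on the log2 scale, and 9 of these had fewer than 10 Input counts in all. The same 12 genes ran from 2.31 to 4.74 over the IgG IP, and from -0.81 to 3.65 for the IgG IP over Input. Of 102 lower genes with at least 10 CPM in Input, the 12 with the largest change ran from -4.78 to -3.37, with 11 counts or more in the LARP1 IP. Those 12 ran from -2.09 to -0.61 against the IgG IP, and from -2.86 to -1.54 for the IgG IP over Input.

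Some IDs were detected on 1 side only, and of 60554 IDs 36322 had no count in any library. In the LARP1 IP, 793 IDs had a count in both libraries and none in Input, with a median of 4 counts over the 2 libraries and at most 100. Only 52 of them were tested and 14 were called higher. Against 3 counts over the Input libraries, the limit that a count of 0 allows for counting error alone, those 14 were at least 4.32-fold to at least 15.4-fold higher. With these genes at their bound the median of the 499 was 2.50 and 162 exceeded 8-fold, against 169 by the fitted values. In the other direction, 578 IDs had a count in both Input libraries and none in the LARP1 IP, with at most 12 counts, and 0 of them were called lower by edgeR, since 1 was tested.

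The 2 LARP1 IP libraries gave gains of unequal size and losses of like size. Against the mean of the Input libraries, the 499 higher genes had a median log2 difference of 1.98 in replicate 1 and 2.76 in replicate 2. The 164 lower genes stood at -2.28 and -2.33. All 499 were above the Input mean in each library and 0 of 164 were in either, which the lack of overlap given above already fixes. Over all genes tested, 5653 and 5783 of 10788 were above it. Within the LARP1 IP, 466 of the 499 higher genes were at a higher level in replicate 2, by a median of 0.74 on the log2 scale, against a median of 0.12 over all genes tested. Among the 51 abundant higher genes the difference was 0.87, with 50 of 51 higher in replicate 2. In the IgG IP 49 of these 51 were also higher in replicate 2 (median 0.57), and in Input 4 of 51 were (median -0.18). Without LARP1 IP replicate 2, edgeR called 237 genes higher and 78 lower, of which 235 and 68 were among the 499 and 164. Without LARP1 IP replicate 1 it called 723 and 253, including 483 and 111 of them.

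The control precipitate showed how much of each change was seen without the anti-LARP1 antibody. For the higher genes the median level was 49.4 CPM with anti-LARP1, 11.6 CPM in Input and 8.60 CPM with control IgG. The median log2 fold change of the 499 was 2.79 over the IgG IP and -0.29 for the IgG IP over Input, where the median of all genes tested was -0.06 and 0.01. With total counts the medians for the IgG IP over Input rose to 1.22 for the 499 and 0.45 for the 164 lower genes. Both sets thus changed sign, with all genes at 1.51. Such a change shifts all genes by a nearly equal amount, so the place of both sets below the median gene was kept by construction. In 340 of the 499 the IgG IP mean lay below both other means, against 3176 of 10788 over all genes tested. It lay between them in 158 and above both in 0, and in 1 the Input and IgG IP means were both 0. The genes were chosen for a LARP1 IP above Input, which disfavours an IgG IP mean above both. For them, lying below both asks only for an IgG IP mean below Input, so the share over all genes tested is not a like background. These orders hold for TMM scaling and were not counted with total counts, where the median of the 499 was 1.22 for the IgG IP over Input. The lower genes had a median of 3.02 CPM in the LARP1 IP, 15.3 CPM in Input and 8.74 CPM in the IgG IP. Their median log2 fold change was -1.54 against the IgG IP and -1.10 for the IgG IP over Input, and in 152 of 164 the IgG IP mean lay between the other means. That order is favoured by choosing genes with a low LARP1 IP and a high Input, and over all genes tested it held for 4069 of 10788. These comparisons share the LARP1 IP or the Input libraries, so the values are given side by side and not as separate evidence.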

How the data were processed

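The authors deposited 1 file of raw read counts per gene for each of the 6 libraries. Reads were processed on GRCh38 with, per the submitters' processing notes, TopHat2 2.1.1 and Bowtie2, CASAVA 1.8, and featureCounts of Subread 1.20.6. How strand and multiply mapped reads were handled, and the annotation release, are not given in the sources used, so counts of near-identical, overlapping or antisense genes may be shared between IDs. Groups and replicate numbers came from the sample titles.

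Counts were fitted with edgeR 4.0.16 in R 4.3.3: filterByExpr with a minimum count of 10 kept 10788 of 60554 IDs (99.69% to 99.85% of each library), TMM scaled them, and all 6 libraries entered 1 quasi-likelihood fit with the group as its only term and 3 residual degrees of freedom. P-values were adjusted by Benjamini-Hochberg over all genes tested, with a threshold of 0.05. SE is the size of the log2 fold change divided by the square root of F. DESeq2 1.42.0 was an alternative. Log2 differences between single libraries used CPM with a prior count of 2. The fit was tested on simulated data in which the groups shared a mean profile, apart from set changes in genes outside the 2 most abundant. The simulation therefore lacked the difference in make-up between the libraries, and cannot show how the scaling copes with it.

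The rule for named genes (12 with the largest change per direction, at least 10 CPM in the higher group and no overlap; the 10 of highest level per group; list members) needed symbols. It was applied without them, and at most 2 IDs per direction were printed, taken from the 10 of highest level. The 27 gene lists, the markers, the start-site sequences and the protein lengths could not be used. Rules and lists were chosen with earlier results of these data known. Library totals were 4135463 to 8069554 counts, and replicates were not duplicates: within groups they differed by 4.73 to 29.75 times sampling noise (chi-square per degree of freedom).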

Additional observations from a re-analysis of the deposited data

How the results depend on the processing

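Counts of genes higher and lower than Input (499 and 164) moved by over 1.5 times as follows. Total counts gave 6550 and 27. Total counts outside the 2 most abundant genes gave 186 and 1270. No low-count filter gave 821 higher. The replicate block gave 1083 and 551, including all 499 and 164, and glmTreat against 1.5-fold gave 88 lower (340 higher stayed within 1.5 times). Without LARP1 IP replicate 2, DESeq2 gave 246 and 90. Leaving out each library gave 0 to 723 higher and 0 to 277 lower by edgeR and 246 to 486 and 61 to 188 by DESeq2; a lone library is then assumed to vary like the other groups. The lowest DESeq2 counts followed the loss of an Input library (247 and 79, 355 and 61) or of LARP1 IP replicate 2. Upper-quartile factors, TMM without the 2 genes, a minimum count of 50, fits of the 4 libraries and DESeq2 stayed within 1.5 times. Apart from their construction, the cause was not tested.

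Replicate numbers recur in each group, with no batch named in the labels. In the 2 groups compared, deviations of equally numbered LARP1 IP and Input libraries from their group means correlated at 0.134 across genes. The IgG IP did not enter this value. Of the 51 abundant higher genes, 50 were higher in replicate 2 of the LARP1 IP, 49 of the IgG IP and 4 of Input. The names of the deposited files give all replicate 2 libraries a tag that the others lack, with no meaning stated. Numbers in these names run in sequence within each replicate. Since no label calls the number a shared batch, the replicate block was not the basis of any call; if the tag marks one, the blocked counts above apply. It turned 1 call of the printed genes, ENSG00000210082.2 in the IgG IP over Input (log2 fold change -2.45, edgeR adjusted p = 0.0223).

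For the 4 printed genes 0 alternatives reversed the LARP1 IP against Input or against the IgG IP. In the IgG IP over Input, where the LARP1 IP has no part, total counts (median of all genes 1.51) turned ENSG00000105372.6 to 1.13, ENSG00000211459.2 to 0.46, and the medians of the higher and lower genes to 1.22 and 0.45. ENSG00000156508.17, at 0.03, turned to -0.013 with upper-quartile factors, -0.010 with DESeq2 and -0.021 with a minimum count of 50, and ran from -0.114 to 0.135 (edgeR) and from -0.119 to 0.084 (DESeq2) with each library left out, below 0 without IgG IP replicate 2 or Input replicate 1 (-0.049 with either tool). Gene lists, list shares, the start-site tract and protein length were not run, since no ID could be matched to a name here. Outside its 2 most abundant genes Input had at most 778680 counts, which limits ratios of genes scarce there, while for the lower genes the LARP1 IP had the fewer counts (median 32 and 14).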
